A study of Mus musculus with 28 samples.

Results

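The 40 genes described here encode the triad and the machinery of excitation-contraction coupling in skeletal muscle. They were chosen by name from the known components of the transverse tubule, the junctional sarcoplasmic reticulum and calcium handling. Earlier results of these data were known when the choice was made. All 40 were present in both count tables, among 55359 genes that the tables share, and all 40 passed the filter on low counts in both cohorts.

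At the triad, a transverse tubule lies between a pair of terminal cisternae of the sarcoplasmic reticulum. The voltage sensor of the tubule, a calcium channel whose pore subunit is Cacna1s, opens the ryanodine receptor Ryr1 of the reticulum, and the released calcium starts contraction. Junctophilins tether both membranes, calsequestrin stores the calcium inside the reticulum, and Bin1 and Dnm2 act on the membrane of the tubule. Mutations of BIN1 and DNM2 cause centronuclear myopathy, in which triads are often misshapen.

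RNA of the tibialis anterior (TA) muscle was sequenced from 28 mice in 7 groups of 4, at 8 weeks of age and on the C57BL/6N strain. In the Dnm2 cohort, WT mice and Dnm2 S619L/+ mice, which carry a heterozygous knock-in point mutation, received placebo or tamoxifen. In the Bin1 cohort, WT mice received placebo, and Bin1 mck-/- mice, in which Bin1 is deleted in skeletal muscle, received placebo or tamoxifen. This cohort has no WT mice on tamoxifen. Tamoxifen, which binds estrogen receptors, was supplied in the diet. Library input and fragmentation time were 300 ng and 2 min in the Dnm2 cohort but 350 ng and 8 min in the Bin1 cohort, so mouse model and library protocol cannot be told apart. The numbers of the mice are those of the labels, and the labels do not give sex.

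Reads on genes numbered 15586333 to 109710886 a mouse in the Dnm2 cohort and 24671835 to 35136327 in the Bin1 cohort, and the 40 genes together took 1.66% to 3.21% of them. Bin1 was at 521 to 556 CPM (counts scaled to a common library size) in WT mice of the Bin1 cohort, 51.6 to 62.1 in Bin1 mck-/- mice on placebo and 36.1 to 49.5 in those on tamoxifen, as the labels state. Dnm2 was at 57.2 to 82.4 CPM in all 28 mice, and counts per gene do not show the point mutation. In the Dnm2 cohort, Xist was above 10 CPM in 2 of 4 mice of each of 3 groups and in 4 of 4 Dnm2 S619L/+ mice on tamoxifen. In the Bin1 cohort it was above 10 CPM in all 12 mice. Reads of mitochondrial genes made up 19.6% to 25.7% of WT placebo libraries in the Dnm2 cohort, 13.6% to 19.0% of the other libraries of that cohort and 7.86% to 11.6% in the Bin1 cohort, and the part of this share in the comparisons below was not tested. The fast fiber list of 10 genes, with the fast myosins and troponins of the TA, summed to 58810 to 140500 CPM. A cardiac muscle list held 6 genes: Myh6, Myl7, Nppa, Nppb, Sln and Tnni3. The list summed to 4.89 to 13.5 CPM in WT mice and 12.8 to 148 CPM in mutant mice, and the part of each gene is not given. Of its genes, only the natriuretic peptide gene Nppb had no reads in any group.

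Genes of other tissues were unevenly spread over the libraries. A list of 10 osteoblast and osteocyte genes summed to 1094 to 2855 CPM in WT mice on tamoxifen, against 31.6 to 60.8 in WT mice on placebo of the same cohort and 14.4 to 27.7 in Dnm2 S619L/+ mice on placebo. In Dnm2 S619L/+ mice on tamoxifen the sum reached 2188 CPM, with 67.5 in mouse 4 as the lowest. In Bin1 mck-/- mice on tamoxifen, mouse 2 stood at 754 CPM with a group median of 23.0. The matrix protease Mmp13, at 595 to 1232 CPM in WT mice on tamoxifen, was among the highest genes of the list. The osteocyte gene Sost was at 0 to 0.07 CPM there. Mepe had no reads in Dnm2 S619L/+ mice on placebo or in any group of the Bin1 cohort. Ibsp and Sost had none in Bin1 mck-/- mice on placebo. In bulk muscle, fewer cells of a type and less RNA per cell cannot be told apart.

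The levels of the 40 genes spanned a wide range in WT muscle. Per kilobase of exon (RPKM), WT mice on placebo of the Dnm2 cohort had 6949 ± 1076 (SD, n = 4) for Pvalb, the soluble calcium buffer parvalbumin of fast fibers. Casq1, the calsequestrin of fast fibers, stood at 1873 ± 169 RPKM, and Tmem38a, the counter-ion channel TRIC-A, at 607 ± 48.7 RPKM. Cacna1s and Ryr1 had close levels, 164 ± 15.9 and 153 ± 33.6 RPKM. At the other end were Fkbp1b with 0.379 ± 0.119 and Ryr3 with 0.0476 ± 0.0208 RPKM, so that both genes rest on few reads per mouse.

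Where genes of the set moved together, their promoters can be compared. The windows of 250 bases before the RefSeq start (build GRCm38.p6) are given here for Camk2d, Cav3 and Orai1, which were higher in Dnm2 S619L/+ muscle, and for Casq1, which was lower in Bin1 mck-/- muscle. Capitals mark the letters CAGCTG, a form of the E-box that muscle regulatory factors bind.
Camk2d (chr3:126596701-126596950, plus strand): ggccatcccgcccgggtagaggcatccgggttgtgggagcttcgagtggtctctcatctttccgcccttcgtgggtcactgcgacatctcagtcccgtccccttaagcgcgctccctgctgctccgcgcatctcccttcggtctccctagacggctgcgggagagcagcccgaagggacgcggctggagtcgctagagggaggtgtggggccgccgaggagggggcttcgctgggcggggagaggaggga
Cav3 (chr6:112459255-112459504, plus strand): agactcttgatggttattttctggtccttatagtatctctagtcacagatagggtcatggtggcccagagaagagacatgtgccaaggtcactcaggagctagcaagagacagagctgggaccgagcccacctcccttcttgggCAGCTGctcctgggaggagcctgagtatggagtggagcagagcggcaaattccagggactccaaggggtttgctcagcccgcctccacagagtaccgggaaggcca
Orai1 (chr5:123014824-123015073, plus strand): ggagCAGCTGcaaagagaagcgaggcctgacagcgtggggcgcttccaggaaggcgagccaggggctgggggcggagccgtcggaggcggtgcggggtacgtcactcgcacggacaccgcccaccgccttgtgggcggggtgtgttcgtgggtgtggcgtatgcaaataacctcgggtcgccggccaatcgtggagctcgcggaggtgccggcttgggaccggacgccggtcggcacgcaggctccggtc
Casq1 (chr1:172219896-172220145, minus strand): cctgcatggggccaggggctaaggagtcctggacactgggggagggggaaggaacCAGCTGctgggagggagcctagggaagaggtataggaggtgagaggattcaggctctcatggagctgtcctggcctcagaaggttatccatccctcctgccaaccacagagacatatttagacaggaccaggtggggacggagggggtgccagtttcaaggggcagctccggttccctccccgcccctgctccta
CAGCTG began 106 bases before the start in Cav3, 246 in Orai1 and 195 in Casq1, and these letters were not in the window of Camk2d. They were found in 12 of 33 windows of 27 matched genes of the set (36.4%), and in 13.0% of all 32851 mouse windows, on both strands since the motif is its own reverse complement. Of the 7 matched genes that were higher in Dnm2 S619L/+ muscle, 2 held it. Neither the palindromic form of the MEF2 motif (3.20% of all windows) nor the full palindrome of the estrogen response element (0.0639%) was found in a window of the set.

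The first comparison asks what the Dnm2 mutation changes under placebo. In TA muscle of Dnm2 S619L/+ mice, 9 of the 40 genes rose and 6 fell, with 25 not called at an adjusted p under 0.05 (edgeR's quasi-likelihood test, Benjamini-Hochberg adjustment over all 15439 genes tested). Over all genes, 21.9% were called, 12.1% higher and 9.81% lower, so 15 of 40 (37.5%) stands above that share. The median log2 fold change of the set was -0.06, beside 0.02 over all genes. The 9 risers were Camk2d, Camk2b, Cacnb1, Cacng1, Cav3, Dysf, Orai1, Jsrp1 and Mcu, and the 6 genes that fell were Camk2a, Jph1, Srl, Slc8a3, Itpr1 and Ryr3.

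**Figure D1:**
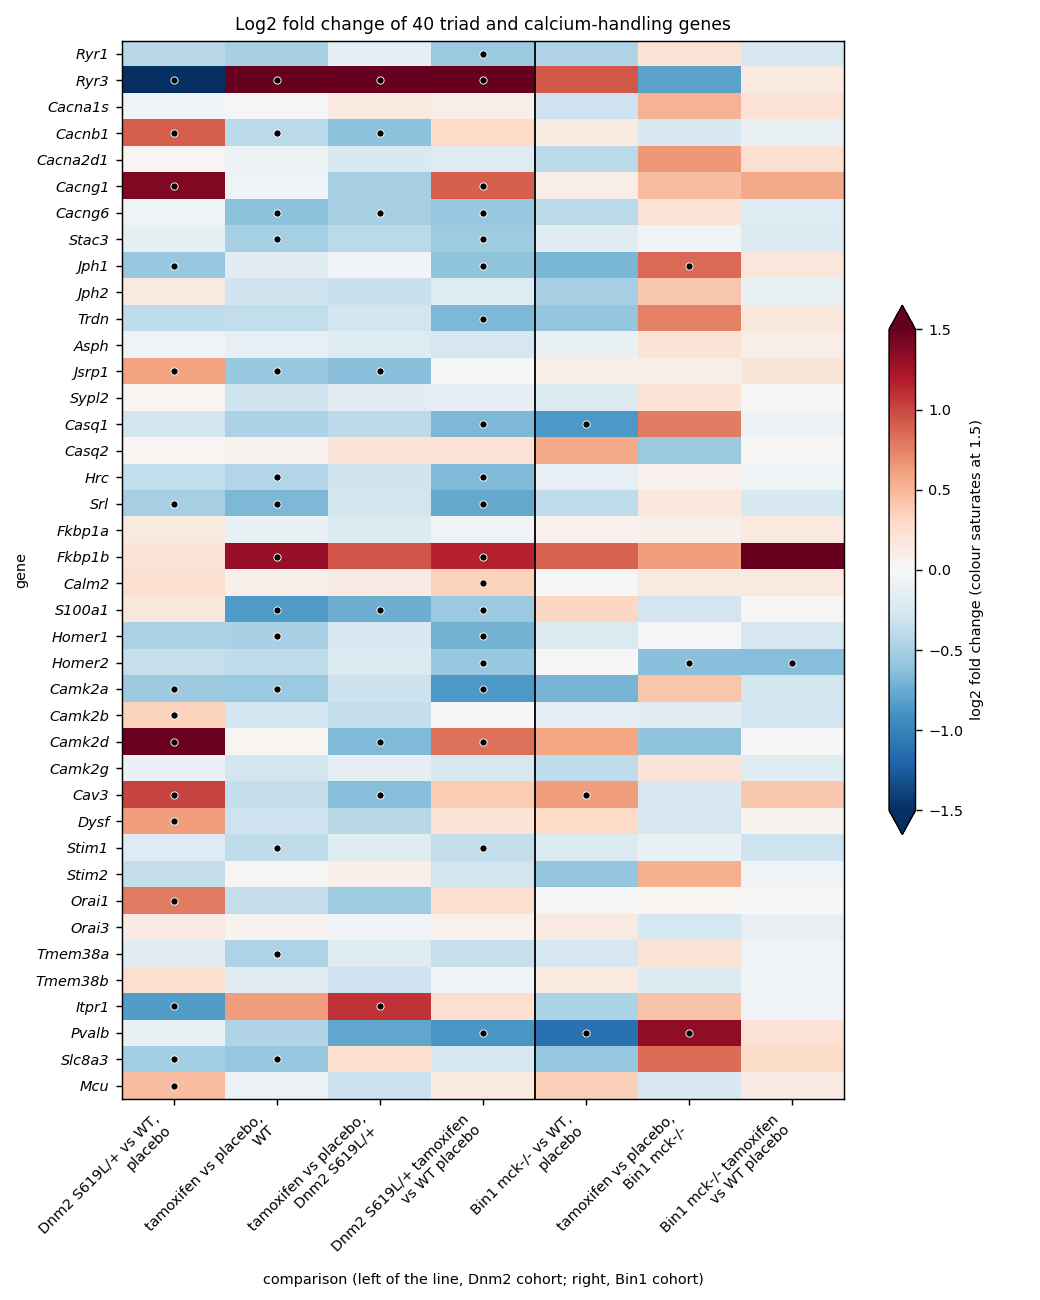
Log2 fold change of each of the 40 genes (rows, ordered by role) in 7 comparisons (columns), with 4 mice per group; red is higher and blue lower in the first group named, and a black dot marks an adjusted p under 0.05 in edgeR. The first column has 9 dots on red and 6 on blue, the second 2 and 12, and the 3 columns of the Bin1 cohort have 3, 3 and 1 dots.

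Camk2d (ENSMUSG00000053819), a calmodulin-dependent kinase that phosphorylates channels and transcriptional regulators, was at 50.4, 50.3, 49.2 and 58.5 CPM in WT mice and at 150, 173, 105 and 157 CPM in Dnm2 S619L/+ mice. All 4 mutant mice lay above all WT mice, a rise of 1.49 ± 0.14 (log2, SE; 2.8-fold; adjusted p = 9.92e-06). Cacnb1 (ENSMUSG00000020882), the beta subunit that carries the voltage sensor to the tubule, went from 168 to 194 CPM in WT mice to 349, 364, 299 and 334 CPM (log2 0.91 ± 0.14, adjusted p = 0.000386). Cacng1 (ENSMUSG00000020722), the gamma subunit of the same channel, was at 144 to 154 CPM in WT mice and at 329, 615, 280 and 336 CPM in the mutant mice (log2 1.39 ± 0.25, adjusted p = 0.00134). The groups did not overlap for either subunit, and mouse 2 held the highest Cacng1 level. Cav3 (ENSMUSG00000062694), the caveolin of muscle that takes part in forming tubules, was at 51.3, 51.5, 52.4 and 48.6 CPM in WT mice. It was at 89.5, 133, 80.0 and 109 CPM in the mutant mice, again without overlap (log2 1.01 ± 0.16, adjusted p = 0.000626).

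Of the other subunits of the voltage sensor none was called. The pore subunit Cacna1s differed by -0.06 ± 0.17, Cacna2d1 by 0.03 ± 0.18 and Cacng6 by -0.06 ± 0.13 on the log2 scale (adjusted p = 0.848, 0.926 and 0.761). Orai1, the pore of store-operated calcium entry, also rose (log2 0.78), as did Dysf, a membrane repair protein also found at tubules (0.63). The last risers were Jsrp1, a junctional protein that binds the sensor (0.60), the pore Mcu of the mitochondrial calcium uniporter (0.46), and Camk2b (0.35). Among the genes that fell, Jph1 dropped by 0.57, Srl, which encodes the lumenal calcium binder sarcalumenin, by 0.49, Camk2a by 0.55, and the sodium-calcium exchanger gene Slc8a3 by 0.51 on the log2 scale. Itpr1, the inositol trisphosphate receptor, fell by 0.83 and the scarce Ryr3, with the largest change of the 6, to 0.354 of the WT level. Ryr1 had a log2 difference of -0.42 ± 0.20 that did not pass (adjusted p = 0.137).

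**Figure D2:**
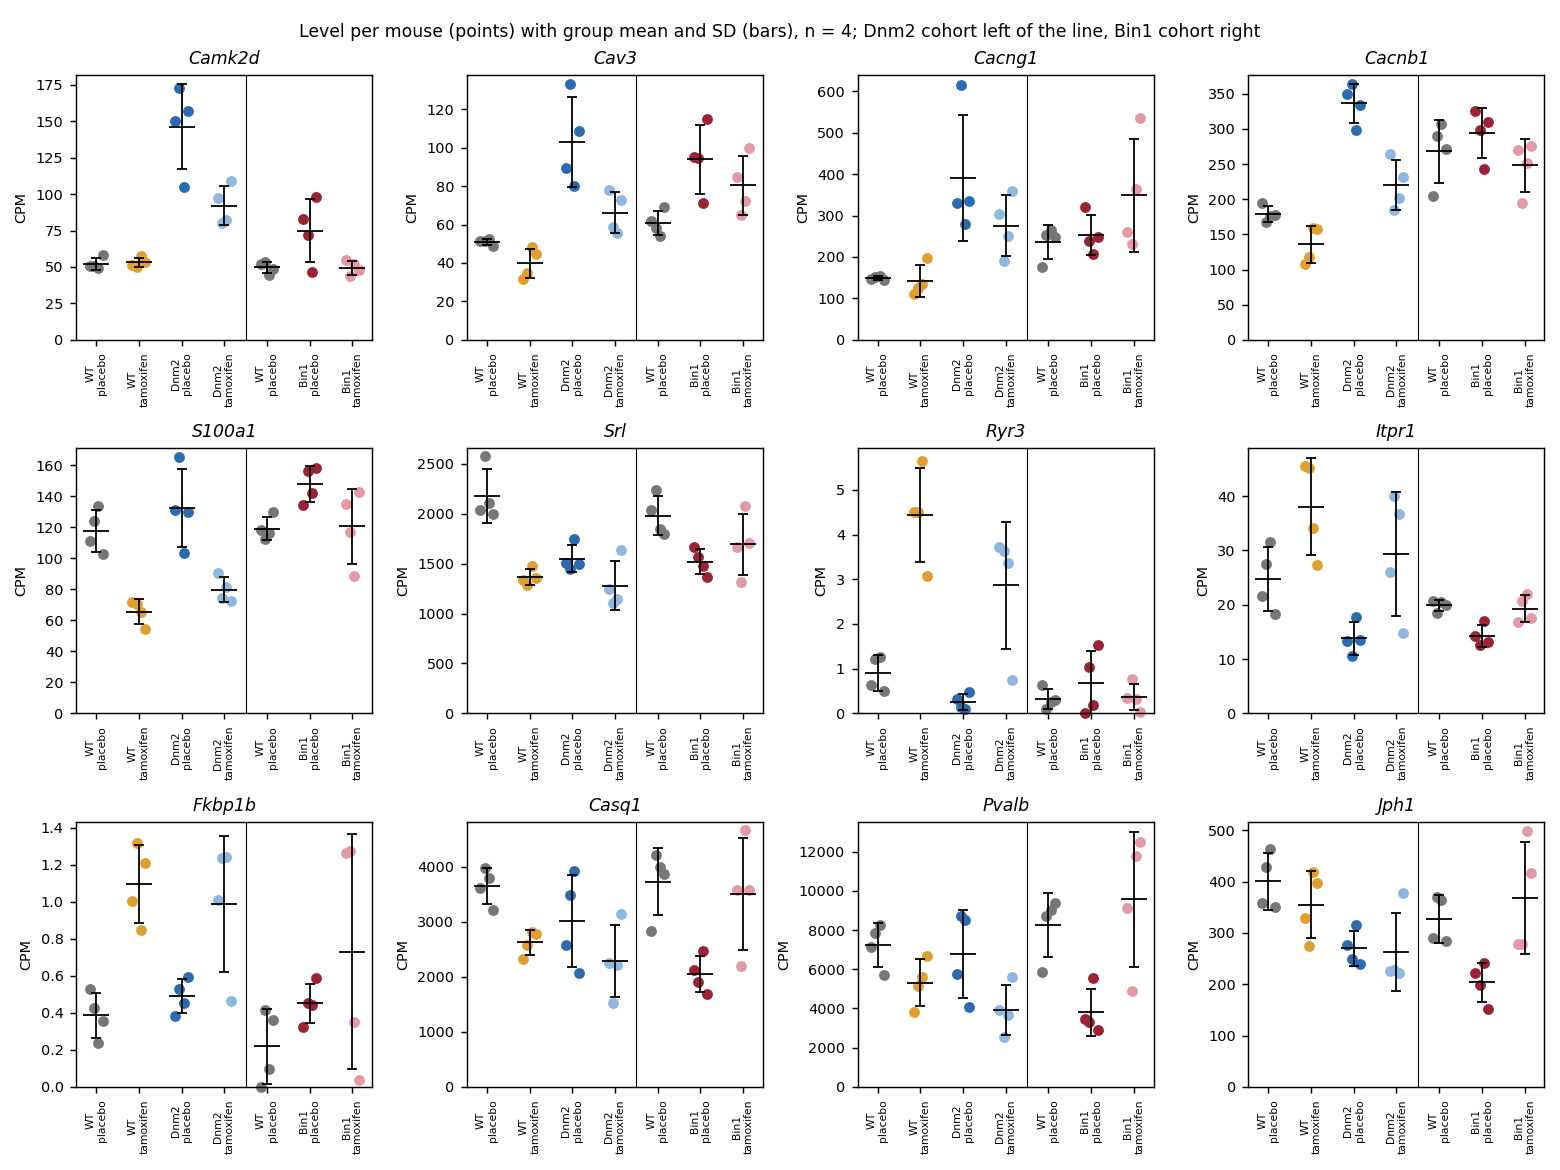
Level of 12 genes in CPM (vertical axes from 0) in each of the 28 mice (points), with group means and SD (bars, n = 4); the line parts the Dnm2 cohort from the Bin1 cohort. Camk2d sits at 49.2 to 58.5 CPM in WT and at 105 to 173 CPM in Dnm2 S619L/+ mice on placebo, and Ryr3 is above 3 CPM only in mice on tamoxifen of the Dnm2 cohort.

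The kinase family shifted in its makeup. In RPKM, Camk2d was 1.62% to 2.41% of the summed level of the 4 Camk2 genes in WT mice on placebo and 3.81% to 7.28% in Dnm2 S619L/+ mice, while Camk2a took 46.7% to 58.0% and 35.9% to 46.1%. Camk2b went from 15.6% to 18.9% up to 21.9% to 25.5%, and Camk2g stayed at 24.8% to 32.5% and 28.2% to 31.4%, ranges that overlap. In the Bin1 cohort, Camk2d took 1.48% to 2.05% in WT mice, 2.03% to 5.53% in Bin1 mck-/- mice on placebo and 1.74% to 2.38% on tamoxifen. These shares do not depend on how libraries are scaled.

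**Figure D3:**
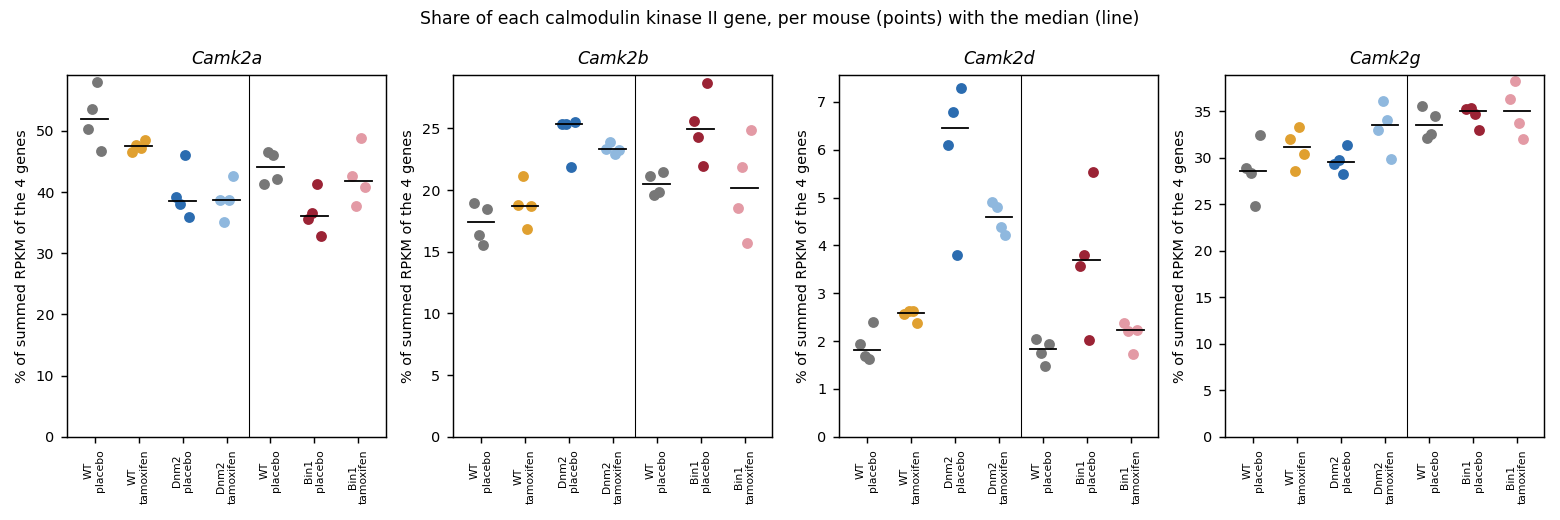
Share of each of the 4 calmodulin kinase II genes in their summed RPKM (vertical axes from 0, %), per mouse (points) with the group median (line), in the 7 groups. The median share of Camk2d is 1.81% in WT and 6.44% in Dnm2 S619L/+ mice on placebo, and 4.59% in Dnm2 S619L/+ mice on tamoxifen.

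The shares within other families were measured in the same way. Jph1 was 32.1% to 41.1% of the junctophilin sum of Jph1 and Jph2 in WT mice and 25.2% to 27.2% in Dnm2 S619L/+ mice, and Jph2 itself was not called in any comparison. Orai1 was 61.7% to 67.5% of the sum with Orai3 in WT mice and 74.5% to 76.5% in Dnm2 S619L/+ mice, and in WT mice on tamoxifen it ranged from 47.5% to 67.4%, so that Orai3 held the larger share in at least 1 mouse. Casq2, Stim2 and Tmem38b were the lesser members of their pairs, with at most 7.10%, 25.8% and 4.38% of the pair sum in the placebo groups and the mutants on tamoxifen. Fkbp1a, which binds Ryr1, took 95.6% to 100% of the sum with Fkbp1b in the same groups, although reads of Fkbp1a, like those of Calm2, can be shared with processed pseudogenes or near-identical copies.

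The 9 rises were also called when libraries were scaled to 16 contractile genes of the fiber such as Acta1, Ckm and Ttn, and none of the 6 falls was. That scaling moved the median of all genes from 0.02 to 0.17 and that of the set from -0.055 to 0.091 (log2). Denervation and regeneration genes were higher in the same mice, with 7 of 10 called higher and a summed level of 176 to 389 CPM against 84.6 to 89.2 in WT mice. Slow fiber genes (5 of 8 called higher, 1 lower) summed to 104 to 487 CPM, overlapping 137 to 282 in WT mice, and 4 of 8 tendon and cartilage genes and 3 of 6 leukocyte genes tested were higher. The cardiac muscle list (1 of 3 genes tested higher, Nppa and Nppb with no reads) summed to 15.6 to 136.1 CPM against 4.89 to 11.7, and 2 of 10 fast fiber genes were lower. Their part in the result was not tested. With only the mice with Xist reads, Camk2d, Cacnb1, Cacng1 and Cav3 were the 4 genes called. Without WT mouse 2 or 3, 7 or 8 genes were called, and Camk2d, Cacng1, Cav3, Cacnb1, Dysf, Orai1 and Mcu were called without any single mouse.

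**Figure D4:**
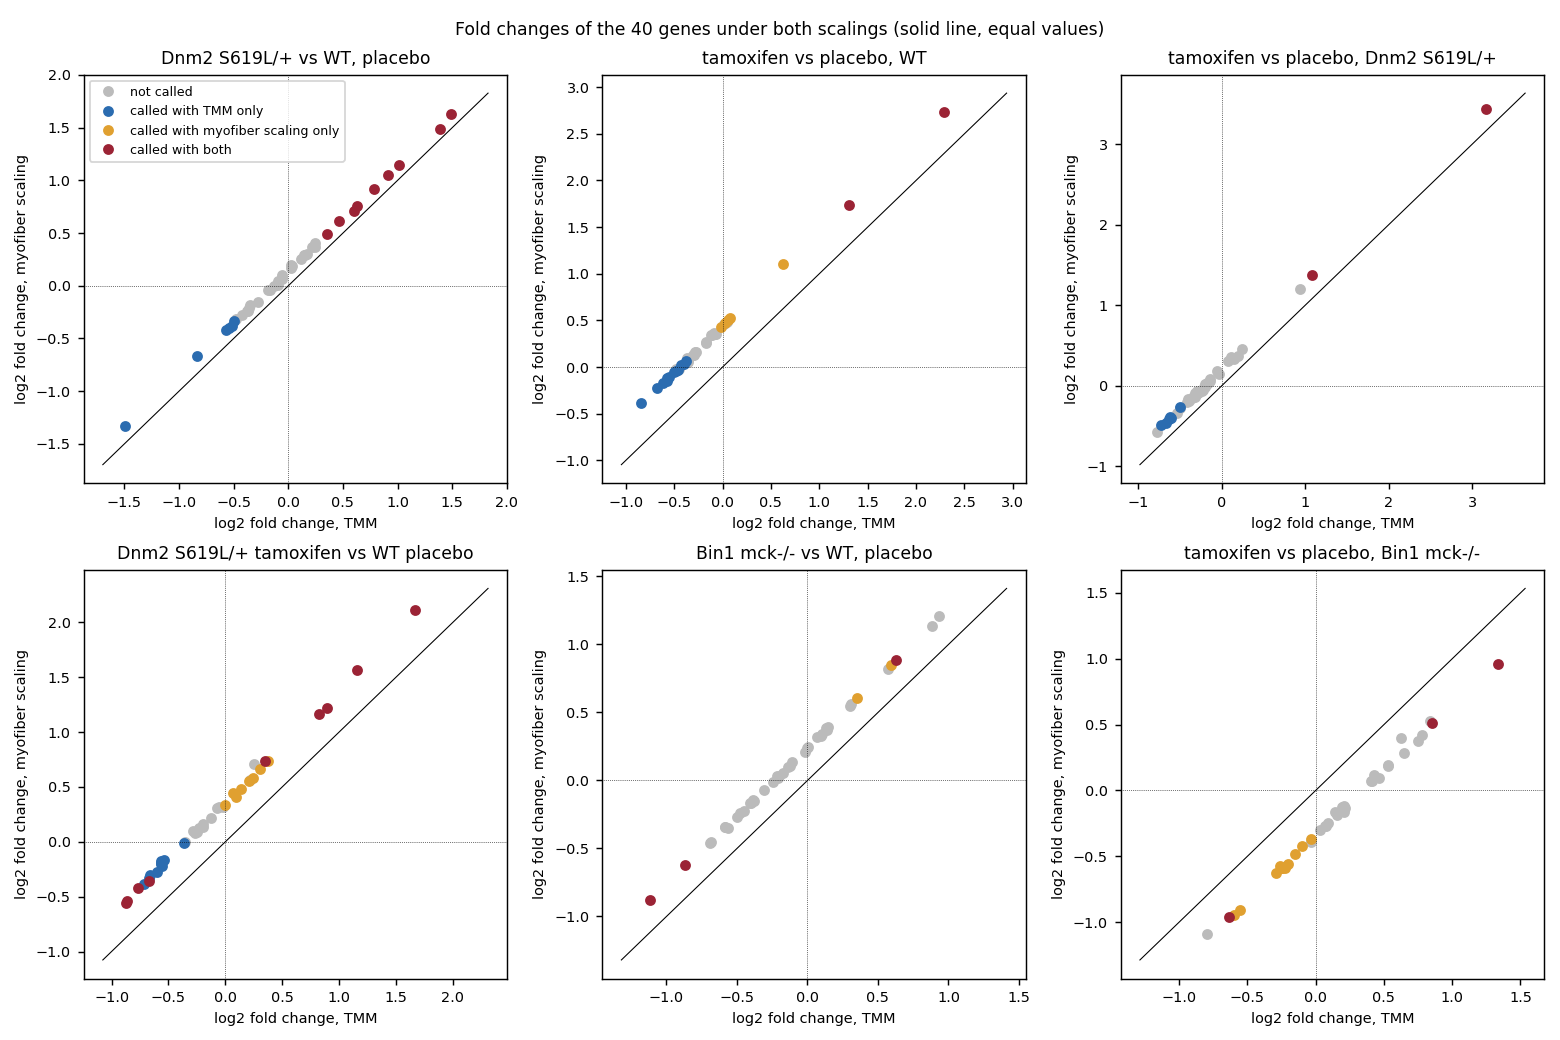
Log2 fold change of the 40 genes with TMM scaling (horizontal axes) and with scaling to 16 contractile genes (vertical axes) in 6 comparisons; the solid line marks equal values and the colours show under which scaling a gene was called. Points lie above the line in the first 5 panels and below it for tamoxifen in Bin1 mck-/- mice, where the medians of all genes moved by the scaling to 0.17, 0.40, 0.19, 0.38, 0.25 and -0.32 in panel order.

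The next comparison asks what tamoxifen does in WT muscle. There, 2 of the 40 genes rose and 12 fell, beside 27.7% of all genes called, 15.8% higher and 11.9% lower. The median of the set was -0.31 (log2) against -0.04 over all genes. Scaling to the contractile genes, which themselves had a median of -0.42 with TMM, turned the split to 7 higher and none lower. None of the 12 falls was then called, and the medians were 0.401 over all genes and 0.133 for the set. All genes shifted upward with the set, so this split is not a result about the set alone. The share of all genes called under that scaling is not given. Cacnb1, Hrc and Stim1 then had differences just above 0. The 2 rises, Ryr3 and Fkbp1b, were called under both scalings. The fast fiber list summed to 79160 to 85800 CPM on tamoxifen against 94650 to 124000 on placebo, without overlap, with 2 of 10 genes lower. Its part in the 12 falls was not tested.

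S100a1 (ENSMUSG00000044080), a calcium sensor that binds Ryr1, was at 111, 124, 134 and 102 CPM on placebo and at 71.9, 70.2, 65.1 and 54.1 CPM on tamoxifen. Srl (ENSMUSG00000022519) went from 2036, 2582, 2108 and 1995 CPM to 1341, 1287, 1478 and 1357 CPM. Cacng6 (ENSMUSG00000078815), a further gamma subunit, went from 152, 148, 162 and 121 CPM to 90.4, 83.6, 104 and 102 CPM. For each of these 3 genes every treated mouse lay below every placebo mouse, with log2 differences of -0.85, -0.68 and -0.62 (SE at most 0.14, adjusted p = 0.000622, 0.00174 and 0.00268). Under scaling to the contractile genes, S100a1 and Srl had -0.38 and -0.22 (adjusted p = 0.112 and 0.153). The other falls were of Jsrp1 and Slc8a3 (each -0.57), Camk2a (-0.55), Stac3, which couples the sensor to release (-0.50), the scaffold gene Homer1 (-0.48), Tmem38a (-0.47), the lumenal gene Hrc (-0.43), Cacnb1 (-0.40) and Stim1, the calcium sensor of store-operated entry (-0.38).

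Ryr3 (ENSMUSG00000057378), a ryanodine receptor that adult TA fibers hardly express, was at 0.64, 1.22, 1.26 and 0.49 CPM in WT mice on placebo. On tamoxifen it was at 4.50, 4.50, 5.65 and 3.07 CPM (log2 2.29 ± 0.46, adjusted p = 0.00219). Fkbp1b, which encodes the calstabilin best known from the heart, was at 0.24 to 0.53 CPM on placebo and at 0.85 to 1.32 CPM on tamoxifen (log2 1.31 ± 0.30, adjusted p = 0.00446). Both groups stayed apart, at levels far under those of Ryr1 and Fkbp1a. In the same comparison, 7 of the 8 bone-cell genes tested, 7 of 8 tendon and cartilage genes and 4 of 6 leukocyte genes rose, with summed levels of 387 to 912 against 47.9 to 128 CPM for tendon and cartilage and 62.0 to 159 against 18.6 to 32.0 CPM for leukocytes. Their part in the rises of Ryr3 and Fkbp1b was not tested.

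Without WT placebo mouse 2 or 3, or WT tamoxifen mouse 1 or 2, the count of called genes fell to between 7 and 9. With only the mice with Xist reads it was 7, of which 5 were among the 14. Ryr3, Fkbp1b, S100a1, Srl, Cacng6 and Stim1 were called whichever single mouse was left out.

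The third comparison asks what tamoxifen does in Dnm2 S619L/+ muscle. Of the 40 genes, 2 rose and 6 fell, beside 8.27% of all genes called, 5.22% higher and 3.05% lower. The genes that fell were S100a1, Camk2d, Cav3, Jsrp1, Cacnb1 and Cacng6. In the comparison of the untreated mutant with WT, which shares the 4 mutant mice on placebo, these genes had log2 differences of 0.17, 1.49, 1.01, 0.60, 0.91 and -0.06 in the same order.

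Camk2d was at 97.1, 80.2, 82.3 and 109 CPM on tamoxifen, where mouse 4 lay above the lowest placebo mouse at 105 CPM (log2 -0.67 ± 0.14, adjusted p = 0.00962). Cacnb1 was at 264, 184, 201 and 232 CPM on tamoxifen and at 299 to 364 CPM on placebo, without overlap (log2 -0.61 ± 0.14, adjusted p = 0.015). S100a1 was at 131, 165, 104 and 130 CPM on placebo and at 90.4, 74.6, 81.3 and 72.1 CPM on tamoxifen, also without overlap (log2 -0.73 ± 0.14, adjusted p = 0.00631). Cav3 fell by 0.63, Jsrp1 by 0.62 and Cacng6 by 0.50 on the log2 scale. Scaled to the contractile genes, Camk2d had -0.46, Cacnb1 -0.40 and Cav3 -0.41 (adjusted p = 0.0872, 0.107 and 0.128), and no fall was called.

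Ryr3 rose from 0.32, 0.14, 0.09 and 0.47 CPM on placebo to 3.71, 3.63, 3.37 and 0.74 CPM on tamoxifen (log2 3.17 ± 0.50, adjusted p = 0.00301). Mouse 4, with 0.74 CPM, was the one of its group with the lowest bone-cell sum. It also had the lowest sums for tendon and cartilage (103.3 CPM), leukocyte (33.98 CPM) and cardiac muscle genes (40.59 CPM). Its fast fiber sum was the highest of the group (97100 CPM). Itpr1 was at 10.5 to 17.8 CPM on placebo and at 25.9, 40.1, 36.7 and 14.8 CPM on tamoxifen (log2 1.09 ± 0.28, adjusted p = 0.0277), and mouse 4 again lay apart from the other treated mice, inside the placebo range. Both rises were called under either scaling. Over the 28 mice, the 7 with the highest Ryr3 levels were the 4 WT mice on tamoxifen and Dnm2 S619L/+ mice 1, 2 and 3 on tamoxifen, which were also the 7 with the highest bone-cell sums. Bin1 mck-/- mouse 2 on tamoxifen, with 754 CPM of bone-cell genes, had 0.76 CPM of Ryr3 and 20.75 CPM of Itpr1. Fkbp1b was at 1.012, 1.236 and 1.244 CPM in Dnm2 S619L/+ mice 1, 2 and 3 on tamoxifen and at 0.463 in mouse 4. In Bin1 mck-/- mice on tamoxifen, Fkbp1b was at 1.274 CPM in mouse 2 and at 1.264 in mouse 1, whose bone-cell sum was 26.15 CPM. The part of bone-cell RNA or of the other lists in these levels was not tested.

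**Figure D5:**
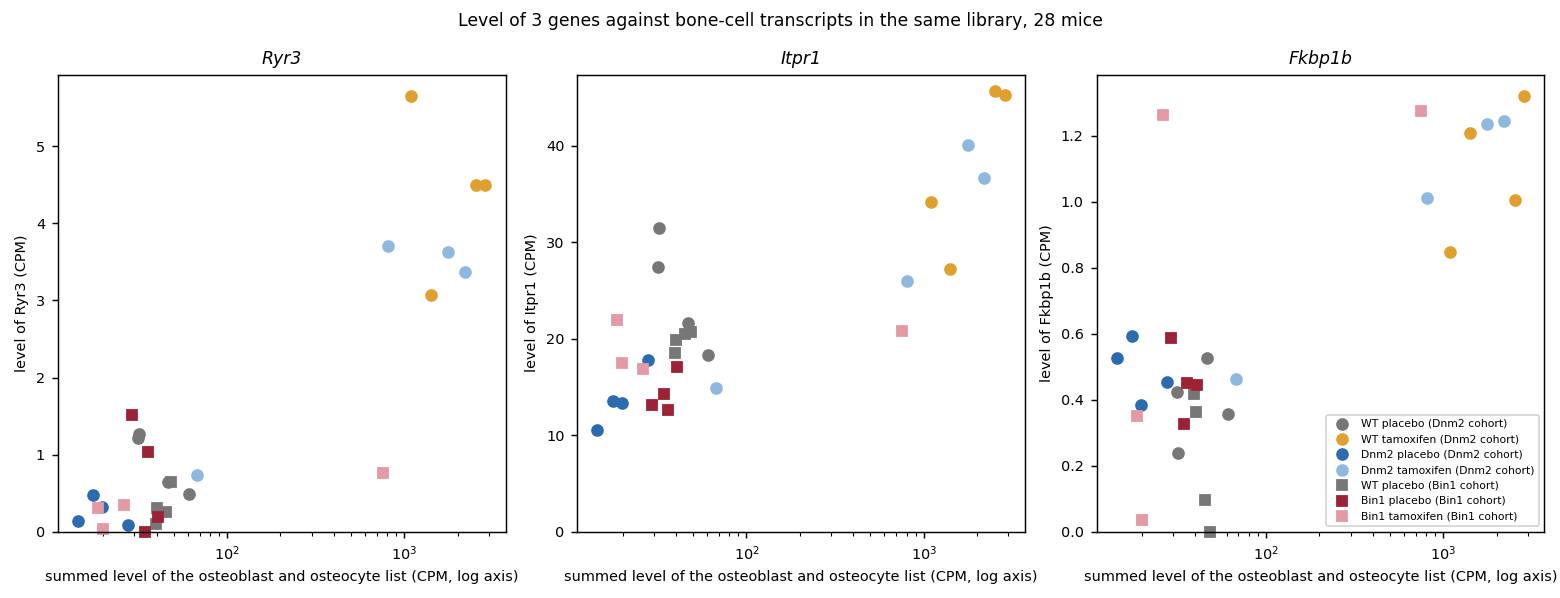
Level of Ryr3, Itpr1 and Fkbp1b in CPM (vertical axes from 0) against the summed CPM of 10 osteoblast and osteocyte genes (horizontal log axes) in the 28 mice; circles are the Dnm2 cohort and squares the Bin1 cohort. The 7 mice with more than 3 CPM of Ryr3 lie between 808 and 2855 CPM of bone-cell genes, and the square near 754 CPM has 0.76 CPM.

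The count of 8 depended on single mice. Without Dnm2 S619L/+ tamoxifen mouse 4 it was 19, 3 higher and 16 lower, without tamoxifen mouse 2 or 3 it was 3, and without placebo mouse 2 it was 4. Fitted on these 2 groups alone it was 0, with adjusted p between 0.0656 for Ryr3 and 0.135 for Jsrp1 among the 8 genes. With Xist as a covariate Ryr3, S100a1 and Camk2d were called, and with only mice with Xist reads S100a1 alone.

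Tamoxifen in WT and in mutant mice, which share no mouse, gave 36 of the 40 genes differences of the same sign with TMM, beside 71.1% of all genes, but 22 of 40 with the contractile scaling, beside 74.8%. The test of the difference itself, the genotype by tamoxifen interaction, called none of the 40 genes and 0.259% of all genes. At an unadjusted p under 0.05 there were 3 genes. Slc8a3 had the smallest adjusted p (0.129, log2 0.82 ± 0.21) and was the 1 gene called by DESeq2, and Camk2d had -0.69 ± 0.19 (adjusted p = 0.159).

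Against WT mice on placebo, Dnm2 S619L/+ mice on tamoxifen had 5 genes higher and 14 lower, beside 28.9% of all genes called, 15.8% higher and 13.1% lower. Scaling to the contractile genes gave 13 higher and 4 lower, and 9 of the 19 calls were shared. The median of all genes was then 0.376 and that of the set 0.148 (log2). The 5 higher genes were Camk2d, Cacng1, Ryr3, Fkbp1b and Calm2, and all 5 were called under both scalings. Camk2d lay at 80.2 to 109 CPM against 49.2 to 58.5 (log2 0.82 ± 0.14, adjusted p = 0.000709). Cacnb1 and Cav3 had log2 differences of 0.30 and 0.38 with TMM (adjusted p = 0.109 and 0.0896) and were called with the contractile scaling (0.66 and 0.74).

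Among the lower genes, Srl was at 1248, 1101, 1141 and 1634 CPM in the treated mutants, all below the lowest WT mouse at 1995 CPM (log2 -0.77 ± 0.13, adjusted p = 0.000788). Hrc (ENSMUSG00000038239), a histidine-rich calcium binder inside the reticulum, went from 1268, 1394, 1377 and 1207 CPM to 842, 746, 751 and 980 CPM (log2 -0.66 ± 0.13, adjusted p = 0.0019). Camk2a (ENSMUSG00000024617) went from 434, 533, 583 and 376 CPM to 255, 195, 241 and 365 CPM (log2 -0.87 ± 0.19, adjusted p = 0.00371). The groups did not overlap for these 3 genes, and treated mouse 4 was the highest treated mouse for each of them. Pvalb (-0.88), Homer1 (-0.71), Casq1 (-0.67), Trdn, the triadin that anchors calsequestrin to Ryr1 (-0.67), Jph1 (-0.60), Homer2 (-0.57), Cacng6 and S100a1 (each -0.56), Ryr1 (-0.56), Stac3 (-0.54) and Stim1 (-0.37) completed the list. In the same comparison 7 of 10 fast fiber genes and 7 of the 16 contractile genes were lower, while 7 of 8 bone-cell genes tested, 7 of 8 tendon and cartilage genes, 7 of 10 denervation and regeneration genes and 4 of 6 leukocyte genes tested were higher. Their part in the 14 falls and 5 rises was not tested. With only mice with Xist reads the count was 4 (Ryr3, Cacng1 and Camk2d higher, Homer2 lower), and without WT mouse 2 or treated mouse 3 it was 12.

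In the Bin1 cohort the first question is what loss of Bin1 changes under placebo. Casq1 and Pvalb fell and Cav3 rose, 3 of 40 genes, beside 2.61% of all 14841 genes tested, 1.99% higher and 0.627% lower. Casq1 (ENSMUSG00000007122) was at 2842, 4219, 4003 and 3866 CPM in WT mice 5 to 8 and at 2120, 1907, 2463 and 1695 CPM in Bin1 mck-/- mice (log2 -0.87 ± 0.21, adjusted p = 0.0384). Pvalb (ENSMUSG00000005716) went from 5844, 8731, 9043 and 9403 CPM to 3445, 3313, 5552 and 2879 CPM (log2 -1.12 ± 0.28, adjusted p = 0.0498). Both fell in every Bin1 mck-/- mouse below the lowest WT mouse. Cav3 was at 61.9, 58.2, 54.0 and 68.9 CPM in WT mice and at 95.3, 94.8, 71.2 and 115 CPM in Bin1 mck-/- mice, also without overlap (log2 0.63 ± 0.15, adjusted p = 0.0427).

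Camk2d had a log2 difference of 0.59 ± 0.17 with an adjusted p of 0.0724, as 3 of 4 mice stood at 71.8 to 97.8 CPM and mouse 3 at 46.5 CPM, inside the WT range. Jph1 (-0.68), Itpr1 (-0.48) and Trdn (-0.58) had adjusted p of 0.0704, 0.0533 and 0.133. With the contractile scaling, 3 genes were higher (Cav3, Camk2d and Mcu) and 2 lower (Casq1 and Pvalb). The median of all genes was then 0.249 and that of the set 0.079 (log2). Denervation and regeneration genes (3 of 10 called higher) summed to 96.4 to 260 CPM against 84.1 to 102 in WT mice, and 4 of 6 leukocyte genes tested rose, to 49.6 to 101 against 14.5 to 21.6 CPM. The fast fiber list, whose fibers also hold most Casq1 and Pvalb, summed to 69770 to 93120 CPM against 97600 to 116200, without overlap, with 2 of 10 genes lower. The cardiac muscle list (1 of 3 genes tested higher, Nppb with no reads) summed to 23.1 to 111.5 against 7.08 to 13.5 CPM. The part of these lists was not tested. All 3 calls were lost without Bin1 mck-/- mouse 1, 2 or 4 or WT mouse 6, 7 or 8, and 1 gene was called without Bin1 mck-/- tamoxifen mouse 1. The count rose to 6, 8 and 7 without placebo mouse 3, tamoxifen mouse 2 and tamoxifen mouse 3, to 8 in DESeq2 and to 10 when only both groups were fitted.

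Both mutants on placebo can be set side by side with no shared mice. Of the 40 genes, 34 had differences from WT of the same sign in both models with TMM, beside 67.8% of all genes, and 28 with the contractile scaling, beside 71.7%, so the set stood above all genes under TMM only. Cav3 was called in both, with 1.01 in Dnm2 S619L/+ and 0.63 in Bin1 mck-/- mice. The difference of both effects, fitted over all 28 mice, called none of the 40 genes and 0.312% of all genes, with 8 genes at an unadjusted p under 0.05. Camk2d had the smallest adjusted p (0.0882, log2 0.89 ± 0.22), followed by Cacnb1 (0.094, 0.77 ± 0.20), and DESeq2 called both and Cacng1.

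Under tamoxifen, Bin1 mck-/- muscle had 2 genes higher and 1 lower, 3 of 40, beside 3.13% of all genes called, 1.52% higher and 1.61% lower. Pvalb was at 9106, 4906, 11790 and 12500 CPM on tamoxifen, where mouse 2 lay inside the placebo range of 2879 to 5552 CPM (log2 1.33 ± 0.28, adjusted p = 0.0233). Jph1 (ENSMUSG00000042686), a tether of tubule and reticulum, was at 222, 199, 242 and 152 CPM on placebo and at 278, 279, 500 and 417 CPM on tamoxifen, without overlap (log2 0.85 ± 0.20, adjusted p = 0.0303). Homer2 (ENSMUSG00000025813), a scaffold that binds ryanodine receptors, went from 29.9, 39.8, 34.4 and 32.3 CPM to 24.4, 21.6, 22.0 and 20.0 CPM, without overlap (log2 -0.63 ± 0.14, adjusted p = 0.0231).

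Casq1 had a log2 difference of 0.78 ± 0.20 (adjusted p = 0.0518), with 3587, 2189, 4668 and 3575 CPM, and mouse 2 was again the lowest treated mouse. That mouse is the one with 754 CPM of bone-cell genes, and it had the lowest fast fiber sum of its group (82810 CPM). Without it 8 genes were called, 7 higher and 1 lower. The scaling to contractile genes, which had a median of 0.43 with TMM, gave 2 higher (Pvalb and Jph1) and 13 lower genes. Among the lower were Camk2d (-0.95), Homer2 (-0.96), Cav3 and Cacnb1 (each -0.59). The median of all genes was then -0.32 and that of the set -0.175 (log2). The direction of Jph1, Pvalb and Homer2 was the same under both scalings. Of the 6 Schwann cell genes 4 fell, to 51.6 to 65.4 against 90.9 to 155 CPM, and 2 of 10 fast fiber genes rose, with a sum of 82810 to 140500 against 69770 to 93120 CPM. Their part was not tested. Further, 0 genes were called without placebo mouse 2 or tamoxifen mouse 3 or 4, 1 without placebo mouse 4 and 1 with only both groups fitted, while DESeq2 called 10, and leaving out placebo mouse 3 or tamoxifen mouse 1 gave 6 and 5.

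Between Bin1 mck-/- mice on tamoxifen and WT mice on placebo, Homer2 was the 1 gene called, lower by 0.63 ± 0.14 (adjusted p = 0.0403), beside 0.849% of all genes, and it was lost in 7 of 12 fits that left out a mouse. At an unadjusted p under 0.05 there were 5 genes. Casq1 and Pvalb stood at -0.09 ± 0.20 and 0.21 ± 0.28 (adjusted p = 0.875 and 0.777), and Cav3 at 0.40 ± 0.15 (adjusted p = 0.24).

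The tamoxifen effects of both mutants were compared after the values had been seen. In the joint fit 3 of 40 genes differed, beside 1.71% of all genes: Pvalb (log2 -2.09 ± 0.40, adjusted p = 0.0184), Casq1 (-1.15 ± 0.30, adjusted p = 0.0486) and Ryr3 (3.99 ± 1.02, adjusted p = 0.0482). Pvalb stood at -0.78 in Dnm2 S619L/+ and 1.33 in Bin1 mck-/- mice, and Casq1 at -0.40 and 0.78. The same 3 differences were called under the contractile scaling (7 genes in all). Of 28 fits that each left out 1 mouse, Pvalb lost its call in 3, Casq1 in 22 and Ryr3 in 23. Ryr3 was at 0 to 1.52 CPM in Bin1 mck-/- mice on placebo and 0.04 to 0.76 CPM on tamoxifen. None of the 3 differences was called with Xist as a covariate or in the fit of only these 4 groups. Every mouse of the Bin1 cohort had Xist above 10 CPM, so there the covariate did not part mice with and without Xist reads. In Dnm2 S619L/+ and Bin1 mck-/- mice 19 of the 40 genes had tamoxifen differences of the same sign with TMM, beside 48.4% of all genes, and 23 with the contractile scaling, beside 34.8%.

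A wider list held 30 other genes of calcium handling and the triad. In Dnm2 S619L/+ mice on placebo 7 rose and 6 fell, with Micu2, a regulator of the mitochondrial uniporter (log2 0.74, adjusted p = 0.000911), higher and the chloride channel gene Clcn1 lower (-0.67, 0.00484). In WT mice on tamoxifen 3 rose and 3 fell. Those with the smallest p were Orai2 (2.66, from 0.887 ± 0.209 to 6.10 ± 1.69 CPM), Selenon (1.11) and Atp2a2, the slow calcium pump (0.76), all higher. In Dnm2 S619L/+ mice none of the 30 was called under tamoxifen, with Selenon (0.81), Saraf (-0.33) and Orai2 (0.85) at the smallest p. Against WT placebo, these treated mice had 6 higher and 7 lower, led by Orai2 (2.43), Clcn1 (-0.66) and Atp2a2 (0.86).

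In Bin1 mck-/- mice on placebo, the membrane repair gene Trim72 (0.70, adjusted p = 0.0246), Micu2 (0.67, 0.0261) and Mcub (1.51, 0.047) rose and none fell. On tamoxifen Trim72 fell by 0.59 (adjusted p = 0.0368), from 331 ± 63.9 to 220 ± 19.5 CPM (SD, n = 4), and Tcap (0.67) and Slc8b1 (-0.43) did not pass. None of the 30 was called between Bin1 mck-/- mice on tamoxifen and WT mice, where Mcub (1.40), Slc8b1 (-0.44) and Micu2 (0.49) had the smallest p.

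Across the 7 pairwise comparisons, 11 of the 40 genes were called in none with TMM: Cacna1s, Cacna2d1, Jph2, Asph, Sypl2, Casq2, Fkbp1a, Camk2g, Stim2, Orai3 and Tmem38b. The share of all genes called in none was not computed, so the count is not a result about the set. With the contractile scaling, 4 of these 11 genes were called. Cacna1s was higher in WT mice on tamoxifen (log2 0.43, adjusted p = 0.00904) and in treated Dnm2 S619L/+ mice against WT (0.41, 0.0115). Orai3 was higher in both (0.50 and 0.44) and lower with tamoxifen in Bin1 mck-/- mice (-0.57). Casq2 (-0.91) and Tmem38b (-0.56) were also lower with tamoxifen in Bin1 mck-/- mice. In these comparisons, in the order named, the median of all genes under that scaling was 0.401, 0.376 and -0.32.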

How the data were processed

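RNA of 28 tibialis anterior muscles was analysed, from 7 groups of 4 mice. The authors deposited raw read counts per Ensembl gene, 1 table for each cohort. Per the labels, the submitters' processing notes name bcl2fastq 2.20.0.422, cutadapt 1.10, Bowtie 1.2.2, STAR 2.5.3, HTSeq 0.6.1p1 and the build mm39, and the libraries were stranded and made from poly(A) RNA. Lines that name no gene (4, only in the Bin1 table) held 22.0% to 30.8% of its counts and were left out. Genes were named with GENCODE M21 (52083 identifiers matched). Nothing states that replicates were separate litters, so p-values measure the spread between these mice.

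Counts were fitted with edgeR 4.0.16 in R 4.3.3 (TMM scaling, filterByExpr, robust quasi-likelihood test, prior count 2, Benjamini-Hochberg adjustment over all genes, threshold 0.05), with all mice of a cohort in 1 fit and all 28 for differences between models. CPM use TMM library sizes, and RPKM the summed exon length. The levels of Mmp13 and Sost are the exception and use the total reads on genes without TMM. DESeq2 1.42.0, other filters and scalings, a replicate block, an Xist covariate and leaving out each mouse were alternatives. The fits with only mice with Xist reads, the counts of equal signs under the contractile scaling and the comparison of both tamoxifen effects were added after seeing the data. The script was tested on simulated data. Values per mouse are given for the 4 called genes with the smallest p in each comparison, and for further genes chosen after their values were seen. From the wider calcium list the 3 with the smallest p are named, except 1 result that is not reported here. The genes and lists were chosen with earlier results of these data known. Promoter windows of 27 of the 40 genes came from RefSeq (GRCm38.p6).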

Additional observations from a re-analysis of the deposited data

Results flagged for a closer look

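In 39 pairs of a gene and a group, the 4 mice were compared with each other, and in 3 pairs 1 mouse lay far from the rest by Dixon's test at the 95% level, which chance gives in about 1 of 20 groups. Camk2d in WT placebo mouse 4 of the Dnm2 cohort stood at 58.46 CPM, with the others at 49.18 to 50.40. Cacng1 in Dnm2 S619L/+ placebo mouse 2 stood at 614.8 CPM, with the others at 279.8 to 336.0. Ryr3 in Dnm2 S619L/+ tamoxifen mouse 4 stood at 0.7408 CPM, with the others at 3.37 to 3.71, and that mouse had 67.5 CPM of bone-cell genes where the others had 808 to 2188. That mouse also had the lowest tendon and cartilage, leukocyte and cardiac muscle sums of its group and the highest fast fiber sum. The part of bone-cell RNA or of these lists was not tested.

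The effect of tamoxifen differed between Dnm2 S619L/+ and Bin1 mck-/- mice for 3 genes in edgeR's joint fit, with log2 differences of 3.993 for Ryr3, -1.147 for Casq1 and -2.089 for Pvalb. Adjusted p was 0.123, 0.139 and 0.061 with Xist as a covariate, and 0.137, 0.137 and 0.106 when only the 4 groups were fitted. Of 28 fits that each left out 1 mouse, the call was lost in 23 for Ryr3, 22 for Casq1 and 3 for Pvalb. Each model has its own library protocol, and the protocol cannot be told apart from the model.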

How the results depend on the processing

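Counts of called genes are given in the order of the report. Those under the scaling to contractile genes have no share of all genes beside them. Scaling to contractile genes gave 9, 7, 2 and 17 in the Dnm2 cohort (main 15, 14, 8 and 19), 5, 15 and 0 in the Bin1 cohort (main 3, 3 and 1) and 7 for the difference of the tamoxifen effects (main 3), and it turned Cacnb1, Hrc and Stim1 in WT mice on tamoxifen to 0.029, 0.025 and 0.063 (log2). Only mice with Xist reads gave 4, 7, 1 and 4 in the Dnm2 cohort. Xist as a covariate gave 3 for tamoxifen in Dnm2 S619L/+ mice, 0, 5 and 0 in the Bin1 cohort and 0 for the difference of the tamoxifen effects. Every mouse of the Bin1 cohort had Xist above 10 CPM, so there the covariate did not part mice with and without Xist reads. In Dnm2 S619L/+ mice Xist went with treatment, above 10 CPM in 2 of 4 mice on placebo and 4 of 4 on tamoxifen. Fits of only the groups compared gave 0 for tamoxifen in Dnm2 S619L/+ mice, 10, 1 and 0 in the Bin1 cohort, 1 for the difference between models (main 0) and 0 for that of the tamoxifen effects. DESeq2 gave 1 for the interaction (main 0), 8 and 10 in Bin1 mck-/- mice on placebo and on tamoxifen, 3 for the difference between models and 8 for that of the tamoxifen effects. With no filter on low counts, tamoxifen in Bin1 mck-/- mice gave 5 and the difference of the tamoxifen effects 1. With a filter of more than 10 reads in 90% of mice, Ryr3 and Fkbp1b were removed and so not tested in any comparison. Correlations between groups ran from -0.325 to 0.335 for same-numbered mice and from -0.423 to 0.359 for the others. With 4 mice per group, these wide ranges do not settle whether replicate numbers pair the mice. The replicate block gave 5 for tamoxifen in Dnm2 S619L/+ mice and 0 for tamoxifen in Bin1 mck-/- mice with only those groups, and 12, 13 and 17 in the other Dnm2 comparisons. Leaving out 1 mouse gave 7 to 18, 7 to 19, 3 to 19 and 12 to 23 in the Dnm2 cohort and 0 to 1 for the interaction. It gave 0 to 8, 0 to 8 and 0 to 1 in the Bin1 cohort, 0 to 1 for the difference between models and 0 to 12 for that of the tamoxifen effects, with 12 without Dnm2 S619L/+ tamoxifen mouse 4. Of the called pairs of a gene and a comparison, in which a gene can count more than once, 66 kept their direction and call in DESeq2, and 38 lost their call without at least 1 mouse while 28 did not. The causes were not tested.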
